A study of Mus musculus with 4 samples.

Results

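The genes described here encode the proteins of the cytosolic ribosome. The rule that takes them uses the gene symbol and no measured value. A gene was taken if its symbol was Rpl or Rps followed by a number, with a closing a, x, l or y and further digits allowed, or was Rplp0, Rplp1, Rplp2 or Rpsa, and symbols marked -ps were left out. This gave 90 of the 55401 genes in the count table, 54 named for the large subunit and 36 for the small subunit, on 19 chromosomes. Of these, 84 are annotated as protein coding and 6 carry the biotype of a processed pseudogene in GENCODE M21 (Rps3a2, Rps3a3, Rps4l, Rps12l1, Rpl6l and Rpl32l). The symbol rule does not take some genes that also encode ribosomal proteins, such as Fau and Rack1, whose values are given with the neighbouring pathways.

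RNA was measured in P14 CD8+ T cells from mice, whose transgenic receptor recognises lymphocytic choriomeningitis virus (LCMV). In the Hic1 vector group the cells had been transduced to overexpress Hic1, a transcriptional repressor of the zinc finger class, and in the empty vector group with the vector lacking an insert. All cells were sorted from the spleen of animals infected with the Armstrong strain of LCMV. The sample labels place collection on day 32 after infection, whereas the series text gives day 7. Neither the promoter of the vector nor the age of the animals is given in the sources used here. Each group had 2 libraries (n = 2), made by Smart-seq2 from the lysate of about 1000 cells.

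A eukaryotic ribosome holds each of its proteins in a fixed ratio to the ribosomal RNA, and cells build the proteins of both subunits in step. The messenger RNAs of these proteins are abundant, start with a run of pyrimidines (a terminal oligopyrimidine or TOP tract), and are translated under the control of the kinase complex mTORC1 and the RNA-binding protein LARP1. In CD8 T cells, ribosome production rises after antigen stimulation together with Myc activity and growth, and falls as cells return to rest.

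Promoter sequence of the 3 genes on which the results turn is printed below, from 50 bases before to 30 bases after the start that RefSeq annotates (GRCm38.p6). They are shown because the pyrimidine tract at the start is the element that these genes are known to share, and because Rps2 had the largest difference between the groups, Rpl18 the only call and Rps18 the next highest fold change. Capitals mark runs of at least 7 pyrimidines on the sense strand. In Rps2, where the window holds no such run, capitals mark the letters TATAAA, which lie after the annotated start and not before it. The windows of all 3 genes lie inside their annotated gene spans, which begin further upstream. The spans of Rps2 and Rpl18 are given below, and that of Rps18 is chr17:33951999-33956001. The lack of a run in Rps2 therefore describes this annotated start only, and whether it is the start used in these cells was not tested. Rps2 is at chr17:24720013-24720092 on the plus strand, Rpl18 at chr7:45718021-45718100 on the plus strand, and Rps18 at chr17:33955636-33955715 on the minus strand.
Rps2: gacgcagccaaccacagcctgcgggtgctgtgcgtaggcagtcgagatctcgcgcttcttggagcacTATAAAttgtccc
Rpl18: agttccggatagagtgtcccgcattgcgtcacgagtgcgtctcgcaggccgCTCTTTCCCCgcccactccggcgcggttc
Rps18: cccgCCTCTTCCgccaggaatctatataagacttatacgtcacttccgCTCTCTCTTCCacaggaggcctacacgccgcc

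The RefSeq table held promoters for 65 of the 90 gene symbols, with 77 entries in all because some genes have several starts. A run of 7 or more pyrimidines was present in the same 80-base window in 68.8% of these entries, against 43.3% of all 32851 promoters in the table. Longer windows of 300 bases, which reach 250 bases before the start, were searched on both strands for 5 short motifs. CCGGAAG, an ETS-type core, was found in 35.1% of the ribosomal protein entries and in 8.86% of all promoters. GGGCGG, an Sp1-type GC box that can overlap other GC-rich motifs, was found in 59.7% and 35.7%. ATGGCGGC, a YY1-type core, was found in 6.49% and 2.24%, and TATAAA in 10.4% and 13.6%. GGGCANCC, which is part of the published response element of HIC1, was found in 6.49% of the ribosomal protein entries and in 5.46% of all promoters. None of the 300-base windows of Rps2, Rpl18 and Rps18 printed in part above held these letters on either strand. A match describes the letters only and is not evidence of a bound site.

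Total gene counts were 7501285 and 8839317 in the Hic1 vector libraries and 4017346 and 3941364 in the empty vector libraries, and the Hic1 vector libraries were the deeper ones. Hic1 had 314 and 161 counts in the Hic1 vector libraries and 3 and 5 in the empty vector libraries, and was called higher (log2 fold change 4.58, SE 0.538, adjusted p = 0.00706 by edgeR). Ribosomal RNA genes took 15.7% and 9.97% of the counts with the Hic1 vector and 8.82% and 10.9% with the empty vector. Xist had 3590 and 3 counts in Hic1 vector replicates 1 and 2 and 1885 and 0 in empty vector replicates 1 and 2, so the replicates of a group came from different animals, although the labels do not say so. Eif2s3y, on the Y chromosome, had 0 and 951 counts with the Hic1 vector and 0 and 396 with the empty vector. The replicate numbers thus split by sex-linked genes in the same way in both groups. Group was the only term of the main fit. The p-values below measure a spread between samples that includes any difference between the replicate numbers. The summed level of 10 CD8 T cell markers was 8886 and 9927 CPM (counts scaled to a common library size) with the Hic1 vector and 7499 and 8083 CPM with the empty vector. The summed level of 8 B cell markers was 280.0 and 213.5 CPM against 79.6 and 89.2 CPM, most of it Ighm, which was called higher with the Hic1 vector. Of the other B cell markers tested, Cd79b had 270 and 117 counts against 67 and 13 and Cd79a 17 and 16 against 6 and 0, neither called, while Ms4a1 and Pax5 had at most 5 counts in any library. Their part in the results below was not tested.

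The share of all counts taken by the ribosomal protein genes differed between the vectors by less than the spread between replicates. They held 3.59% and 4.095% of all counts in the Hic1 vector libraries and 3.804% and 3.455% in the empty vector libraries. The group means were 3.84% ± 0.357 and 3.63% ± 0.247 (SD, n = 2 each), and their difference of 0.213 percentage points was below the pooled SD of the replicates of 0.307. The libraries of the groups overlapped. The difference was -0.0395 percentage points without Hic1 vector replicate 2, 0.0385 without empty vector replicate 2, 0.3875 without empty vector replicate 1 and 0.4655 without Hic1 vector replicate 1. On the TMM-scaled basis used for all levels here, the summed level was 37910 and 41240 CPM in the Hic1 vector libraries and 37090 and 34020 CPM in those with the empty vector, and the groups did not overlap (39580 ± 2356 and 35550 ± 2173 CPM, SD, n = 2 each). In a bulk sample a smaller share of RNA from fewer cells and from less RNA per cell cannot be told apart. With ribosomal RNA genes left out of the total, the share was 4.26% and 4.55% in the Hic1 vector libraries and 4.17% and 3.88% in the empty vector libraries, where the groups no longer overlapped.

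Large subunit genes held more counts than small subunit genes in each library, by a ratio slightly higher in value with the Hic1 vector. Large subunit genes held 1.96% and 2.23% of the counts in the Hic1 vector libraries and 2.05% and 1.87% in the empty vector libraries. Small subunit genes held 1.628% and 1.865% in the Hic1 vector libraries and 1.754% and 1.589% in the empty vector libraries. The ratio of large to small subunit counts was 1.205 and 1.196 with the Hic1 vector and 1.168 and 1.174 with the empty vector. With Rps2, described below, left out of the small subunit sum, the ratio was 1.214 and 1.201 with the Hic1 vector and 1.203 and 1.196 with the empty vector, and the groups overlapped.

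**Figure D1:**
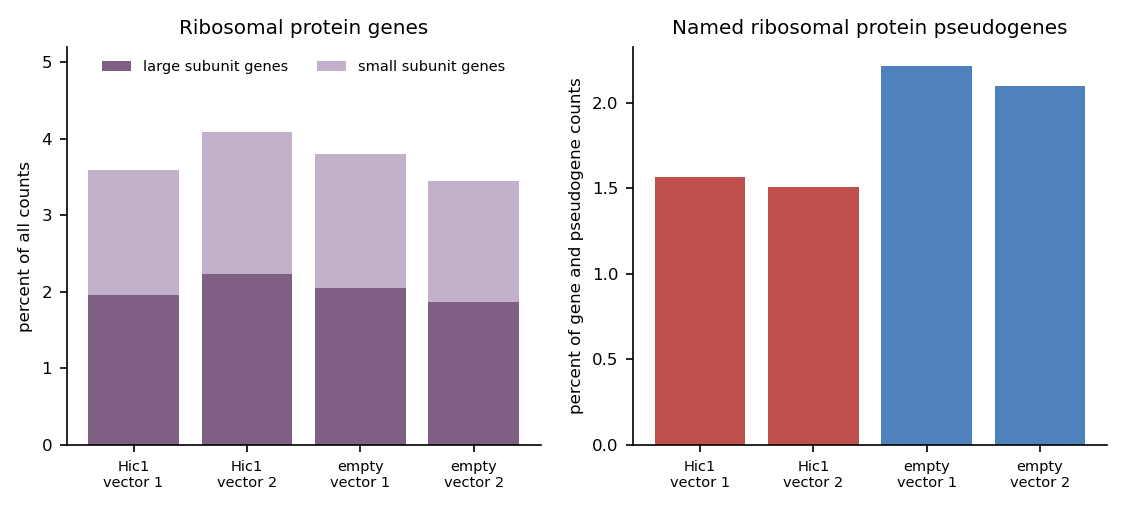
Left, the percent of all gene counts held by large subunit (dark) and small subunit (light) ribosomal protein genes in each library, stacked; right, counts of pseudogenes with a -ps symbol as a percent of gene and pseudogene counts together. The summed shares overlap between the groups (3.59% and 4.095% with the Hic1 vector against 3.804% and 3.455% with the empty vector), and the pseudogene percent is lower in both Hic1 vector libraries.

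Of the 90 genes, 83 passed the filter on low counts and were tested, 81 of them protein coding. The 7 that were not tested were near or at 0. Rpl10l, a testis copy of Rpl10, and Rps12l1 had 0 counts in each library, and Rpl3l, a muscle copy of Rpl3, had 0 and 0 counts with the Hic1 vector and 1 and 1 with the empty vector. Rpl39l had 5 and 6 counts against 0 and 0, Rps4l 0 and 7 against 3 and 1, Rps3a2 8 and 8 against 4 and 6, and Rpl6l 5 and 10 against 3 and 4, Hic1 vector libraries before empty vector libraries in each case. Since filtering depends on the counts, the 83 tested genes are not the whole set.

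Only 1 of the 83 tested ribosomal protein genes was called between the vectors at an adjusted p below 0.05, the large subunit gene Rpl18, which was higher with the Hic1 vector. That is 1.2% of the genes tested here, against 1.82% of all 11676 genes tested (0.719% called higher and 1.10% called lower). At an unadjusted p below 0.05, 22 ribosomal protein genes were higher and 2 were lower, 26.5% and 2.41% of those tested, against 9.41% and 9.70% of all genes. Each Hic1 vector library was above each empty vector library for 40 ribosomal protein genes (48.2%, against 26.5% of all genes). For 12 genes each was below them (14.5%, against 24.9%). These shares differ with level. Among other genes at 100 CPM or more, 16.8% were higher and 11.6% lower at an unadjusted p below 0.05. In that set 37% lay above without overlap and 23.6% below. For ribosomal protein genes at 100 CPM or more the 4 values were 29.7%, 1.35%, 51.4% and 12.2%. Under plain library size scaling the calls over all genes were 70 higher and 251 lower in place of 84 and 129 (2.75% of genes), and Rpl18 was called higher and Rps2 lower. DESeq2 called 7 ribosomal protein genes (Rpl18, Rps18, Rps19, Rplp0, Rps15 and Rpl7a higher and Rps2 lower), against 4.15% of all genes, and a fit with the replicate number as a block called 10, against 6.80% of all genes. Limma voom called Rpl18 alone (1.51% of all genes), as did edgeR at a minimum count of 30 (2.23% of all genes). After removal of a GC trend 0 were called, against 1.18% of all genes. A fit without 1 library leaves a single library in a group, and the number of calls then varied with the library left out.

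The fold changes were small and shifted slightly upward. The median log2 fold change was 0.15 over the 83 genes and 0.01 over all genes tested, with quartiles of -0.04 and 0.28 for the ribosomal protein genes and -0.31 and 0.29 for all genes. The fitted value was above 0 for 57 of the 83 genes under TMM scaling (against 50.9% of all genes) but for 46 with library sizes alone. The median stayed above 0 under every alternative tried, but the median of all genes moved as well. With library sizes alone the ribosomal protein genes had 0.08 and all genes -0.06. After removal of the GC trend the values were 0.10 and 0.02. Differences of less than 0.5 on the log2 scale made up 94.0% of the ribosomal protein genes and 70.7% of all genes. Beyond 1 lay 1 ribosomal protein gene, Rps2 (1.2%, against 7.5% of all genes). The median of the ribosomal protein genes depended on which library was left out, given here with that of all genes in brackets. It was 0.04 (0.02) without empty vector replicate 2 and 0.07 (-0.01) without Hic1 vector replicate 2. It was 0.20 (0.02) without empty vector replicate 1 and 0.24 (0.001) without Hic1 vector replicate 1. Among genes at 100 CPM or more the median was 0.17 for 74 ribosomal protein genes and 0.06 for 1844 other genes. At that level, 94.6% of the ribosomal protein genes and 86.4% of the other genes lay within 0.5 of 0. Beyond 1 lay 1.35% and 1.9%.

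Replicates of a group also lay close together for these genes. The median absolute log2 difference between the libraries of a group was 0.162 in the Hic1 vector group and 0.136 in the empty vector group, against 0.244 and 0.266 over all genes. The median absolute difference between the group means was 0.2 for the ribosomal protein genes and 0.290 for all genes. The last pair of values compares means of 2 libraries and the others single libraries, so their sizes are not on the same footing. The comparison with all genes was not matched for level.

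**Figure D2:**
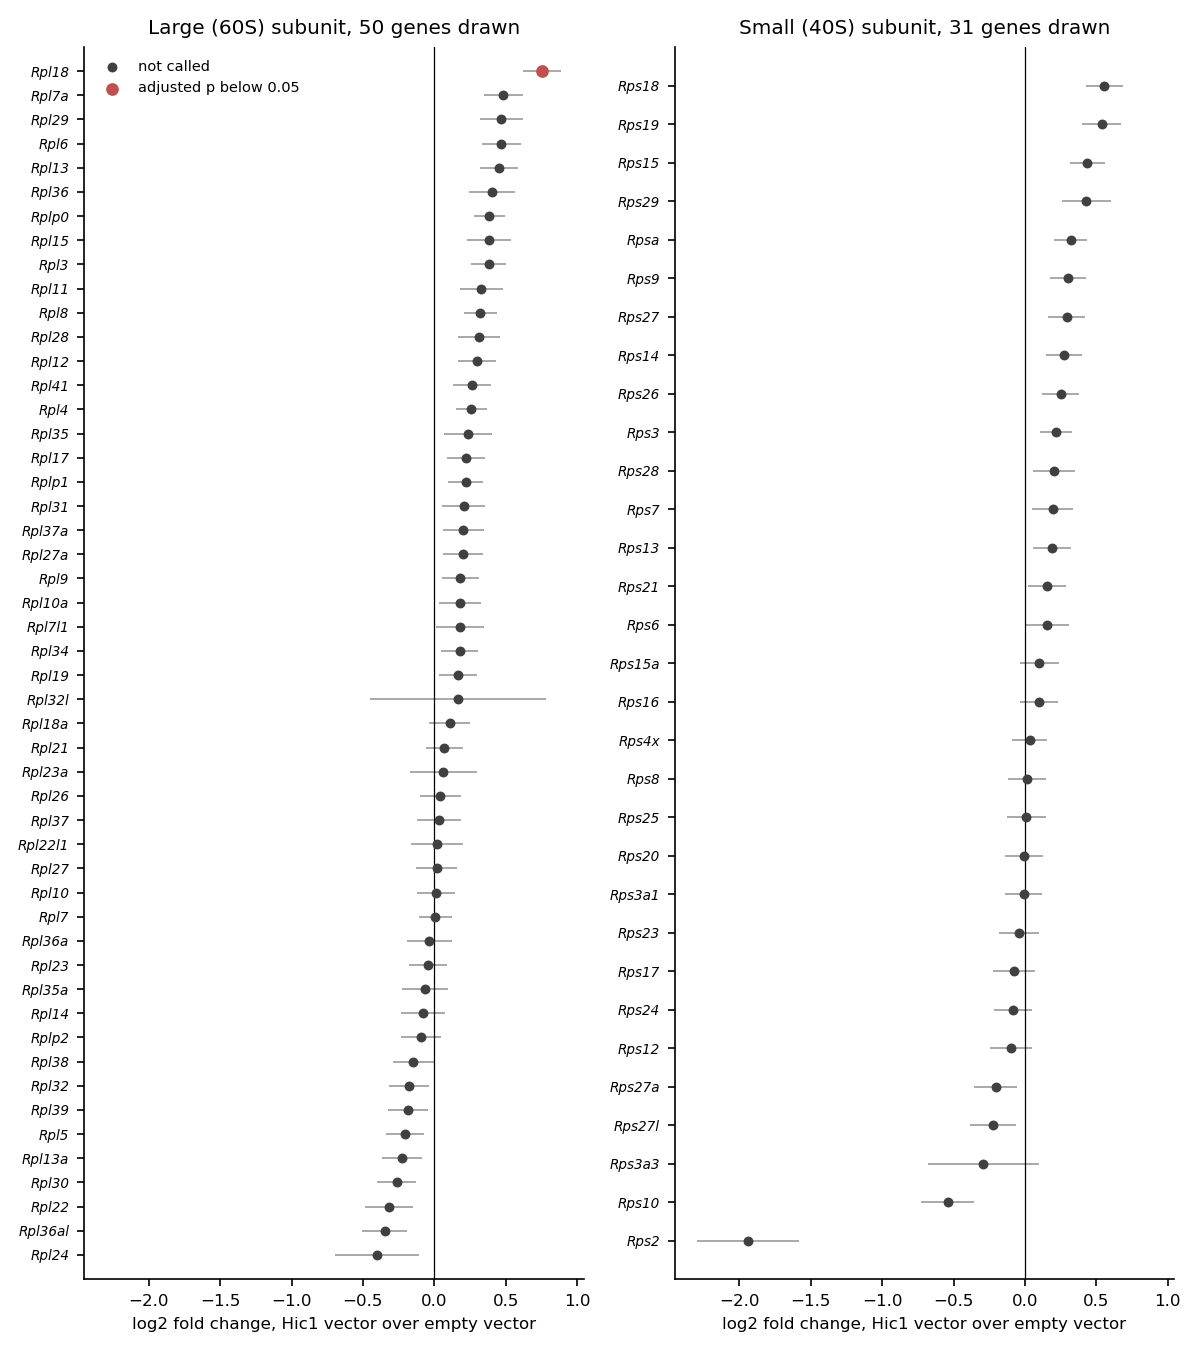
Fitted log2 fold change, Hic1 vector over empty vector, of the 50 large subunit genes tested and 31 of the 33 small subunit genes tested, with its SE as a line; the coloured point is the gene called at an adjusted p below 0.05. Most genes lie within 0.5 of 0, Rpl18 stands highest at 0.76 and Rps2 lies apart at -1.94.

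In the decoding site and mRNA channel of the small subunit, Rps2 differed far more than any other ribosomal protein gene. Rps2 lines the entry of the mRNA channel and helps to hold the accuracy of decoding (chromosome 17, positions 24718116 to 24721929, plus strand, mm10). Its level was 129.0 and 73.3 CPM in the Hic1 vector libraries and 490.1 and 285.1 CPM in the empty vector libraries, from 916 and 643 counts against 2019 and 1141. Both Hic1 vector libraries lay well below both empty vector libraries, although the libraries within each group also differed by a wide margin. The log2 fold change was -1.94 (SE 0.357), a level 3.83-fold higher in the empty vector group, and Rps2 did not pass over all genes (adjusted p = 0.0639 by edgeR's quasi-likelihood test). Within replicate number 1 the difference on the log2(CPM + 1) scale was -1.92, and within number 2 it was -1.95. With the replicate number as a block in edgeR, Rps2 was called lower (adjusted p = 5.667e-05), although the labels do not say that the numbers pair samples. It was called under 9 of 19 alternatives, among them DESeq2 (adjusted p = 0.0221), and over all 19 the log2 fold change ranged from -2.39 to -1.49 and the adjusted p from 1.047e-15 to 0.1757. Rps2 was not called with limma voom, at a minimum count of 30, or after removal of the GC or the length trend alone. The fits without empty vector replicate 2 and without Hic1 vector replicate 1 are among the 9, with log2 fold changes of -2.29 and -2.39. The fits without either of the other libraries are not.

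Rps2 has processed copies in the genome that share its sequence, and 12 of them have rows of their own in the table. Together these took 44 and 30 counts in the Hic1 vector libraries and 88 and 45 in the empty vector libraries, or 4.20% of the counts of Rps2 and its copies. The copy Rps2-ps7 had 2.53 and 0.912 CPM with the Hic1 vector and 15.1 and 7.99 CPM with the empty vector. It fell by 2.55 on the log2 scale (SE 0.540, adjusted p = 0.0443 by edgeR), the only one of 79 tested pseudogenes of this family to be called. Reads of the gene and of this copy may not be separable, so both values are uncertain. With the counts of all copies added to their genes, the log2 fold change of Rps2 was -1.93 (adjusted p = 0.0670). Rps2 also holds a small nucleolar RNA gene, Snora64, within its span.

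The other 3 genes of this site were not called. Rps3, at the same channel entry, had 1976 and 2113 CPM with the Hic1 vector and 1836 and 1682 CPM with the empty vector (log2 fold change 0.22, adjusted p = 0.323). Rps15, in the head near the decoding site, had 651.3 and 695.0 CPM against 496.4 and 497.7 CPM (0.44, adjusted p = 0.0875). For both genes the Hic1 vector libraries were the higher ones. Rps23, a decoding site protein, had 266.4 and 304.9 CPM with the Hic1 vector and 310.0 and 277.8 CPM with the empty vector, and the groups overlapped.

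Rpl18, a large subunit protein whose gene is among those mutated in human Diamond-Blackfan anaemia, was the only gene called (chromosome 7, positions 45715457 to 45720836, plus strand, mm10). Its level was 427.0 and 440.4 CPM in the Hic1 vector libraries and 244.7 and 268.8 CPM in the empty vector libraries. The libraries of each group were close to each other and far from the other group. Rpl18 rose 1.69-fold with the Hic1 vector, a log2 fold change of 0.76 (SE 0.132, adjusted p = 0.0225 by edgeR). The difference was 0.80 within replicate number 1 and 0.71 within number 2. It was called under 17 of 19 alternatives. With empty vector replicate 1 left out its value was 0.69 on the log2 scale (adjusted p = 0.176), and after a trend with GC content was removed from each library it was 0.50 (adjusted p = 0.0888), and the call was lost in both. The chosen Rpl18 transcript has a GC content of 58.3%.

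A few other genes came close to the threshold with higher values in the Hic1 vector group. Rps18, a protein of the small subunit's head, had 429.4 and 433.3 CPM with the Hic1 vector and 300.3 and 285.8 CPM with the empty vector (log2 fold change 0.56, SE 0.129, adjusted p = 0.0521). Rps19, the gene most often mutated in human Diamond-Blackfan anaemia, had 401.5 and 472.7 CPM against 305.6 and 296.1 CPM (0.54, SE 0.137, adjusted p = 0.0667). The groups did not overlap for either gene, and the spread between replicates was wider for Rps19 in the Hic1 vector group. Rpl7a, Rpl29 and Rpl6, all of the large subunit, followed with log2 fold changes of 0.48, 0.47 and 0.47, and adjusted p-values of 0.0931, 0.124 and 0.0945. Rpl7a had 416.3 and 419.6 CPM with the Hic1 vector and 270.9 and 326.3 CPM with the empty vector. Rpl29 had 260.7 and 263.6 CPM against 210.2 and 168.1 CPM. Rpl6 had 377.2 and 434.9 CPM against 298.6 and 288.1 CPM. For all 3 of these genes each Hic1 vector library was above each empty vector library.

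At the low end, after Rps2, stood Rps10, Rpl24, Rpl36al, Rpl22 and Rps3a3, none of them called. Rps10, another Diamond-Blackfan anaemia gene, had 58.4 and 76.8 CPM with the Hic1 vector and 107.8 and 89.4 CPM with the empty vector (log2 fold change -0.54, SE 0.187, adjusted p = 0.148). Its groups did not overlap, but 49.9% of the counts of Rps10 and its 4 listed pseudogenes were assigned to the pseudogenes, so its level is uncertain. Rpl24 had 12.7 and 12.5 CPM against 16.3 and 17.2 CPM (-0.40, adjusted p = 0.499), and Rps3a3, itself a pseudogene by biotype, 6.90 and 6.495 CPM against 7.28 and 9.24 CPM (-0.29, adjusted p = 0.740), Hic1 vector before empty vector. Rpl22, which is required for T cell development in mice, had 202.0 and 201.5 CPM with the Hic1 vector and 294.4 and 208.6 CPM with the empty vector (-0.32, adjusted p = 0.340). In Rpl22, empty vector replicate 1 lay far above the other 3 libraries.

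**Figure D3:**
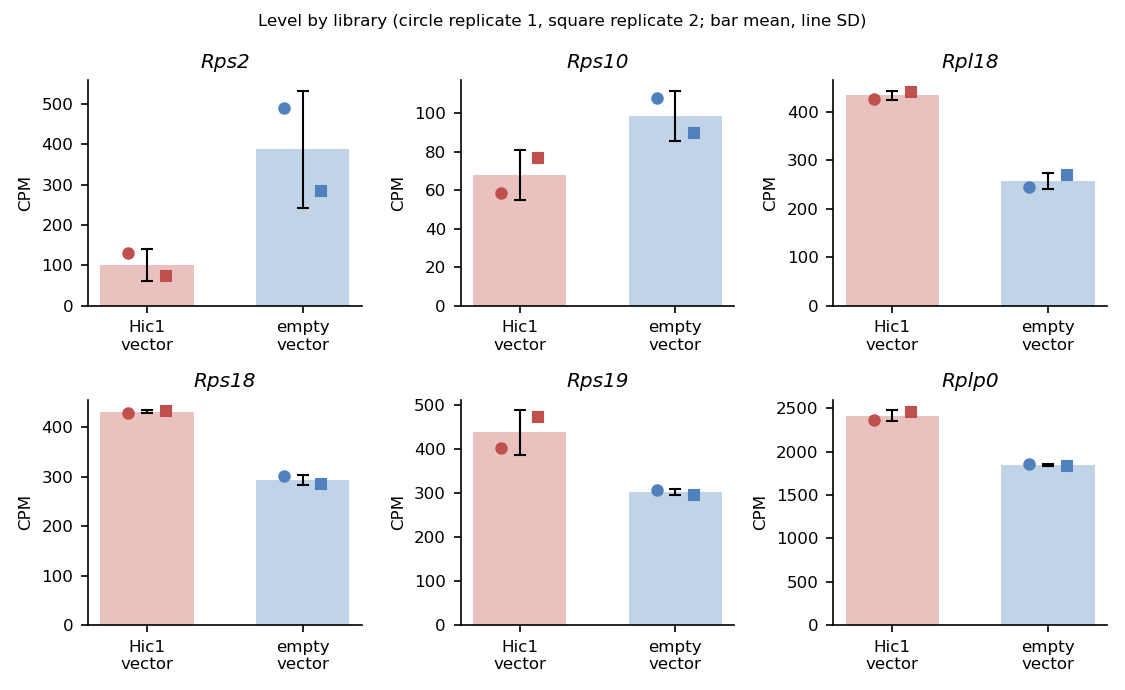
Level in CPM, scaled by TMM, of Rps2, Rps10, Rpl18, Rps18, Rps19 and Rplp0 in each library (circle replicate 1, square replicate 2), with the mean as a bar and the SD as a line (n = 2 per group), Hic1 vector left and empty vector right. For Rps2 and Rps10 both Hic1 vector libraries are below both empty vector libraries, and for the other 4 genes they are above; Rpl18 is the only one of the 6 that was called.

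In the P stalk, which recruits the elongation factors, the base and its partners differed in value. Rplp0, the base, had 2367 and 2457 CPM in the Hic1 vector libraries and 1857 and 1837 CPM in the empty vector libraries (log2 fold change 0.39, SE 0.108, adjusted p = 0.0875). The libraries within each group were nearly equal and the groups did not overlap. Rplp1 had 694.2 and 732.9 CPM with the Hic1 vector and 649.3 and 576.6 CPM with the empty vector (0.22, adjusted p = 0.371). Rplp2 had 419.8 and 408.4 CPM against 484.5 and 399.2 CPM (-0.09, adjusted p = 0.766), and its groups overlapped. After removal of the GC trend the fitted value of Rplp1 was slightly below 0, and without empty vector replicate 1 that of Rplp2 was slightly above 0. The difference between the stalk genes was not tested.

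The proteins of the 5S ribonucleoprotein, Rpl5 and Rpl11, bind Mdm2 when ribosome assembly fails and thereby stabilise p53. Rpl5 had 320.3 and 319.4 CPM with the Hic1 vector and 382.3 and 355.3 CPM with the empty vector (log2 fold change -0.21, adjusted p = 0.427). Rpl11 had 245.4 and 301.0 CPM against 224.8 and 209.9 CPM (0.33, adjusted p = 0.253). The partners thus stood on opposite sides of 0 without overlap between the groups, and neither was called. Of 10 tested genes of ribosomal stress and p53, 0 were called by edgeR, with a median log2 fold change of 0.03. At an unadjusted p below 0.05, 2 were higher and 1 lower (20% and 10%, against 9.41% and 9.70% of all genes).

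Rps6, the small subunit protein phosphorylated by S6 kinase downstream of mTORC1, had 287.6 and 341.8 CPM with the Hic1 vector and 313.4 and 252.3 CPM with the empty vector. Its groups overlapped (log2 fold change 0.15, adjusted p = 0.638). Of the mRNA exit platform, Rpsa, Rps14, Rps26 and Rps28 were each higher in both Hic1 vector libraries, with log2 fold changes of 0.20 to 0.32 and 0 calls by edgeR (Rpsa and Rps14 at an unadjusted p below 0.05). Rpsa, the laminin receptor protein of the ribosome, had 1099 and 1027 CPM with the Hic1 vector and 853.4 and 846.7 CPM with the empty vector (0.32, adjusted p = 0.162). The 5 genes of the tunnel exit rim, where nascent chains leave, had fitted values of 0.04 to 0.24 and 0 calls by edgeR (0 at an unadjusted p below 0.05). Rpl3, Rpl8 and Rpl10, of the peptidyl transferase region and late assembly, had log2 fold changes of 0.38, 0.32 and 0.01, and 0 of the 3 were called by edgeR (2 at an unadjusted p below 0.05). Rpl10 turned slightly negative with library sizes alone (-0.06). Rpl4, which reaches into the wall of the exit tunnel, had 2193 and 2289 CPM with the Hic1 vector and 1886 and 1861 CPM with the empty vector (0.26, adjusted p = 0.219).

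The genes mutated in human Diamond-Blackfan anaemia numbered 18 among those tested, with 1 called (Rpl18, 5.56%, against 1.82% of all genes) and 13 above 0 in value (72.2%, against 68.7% of the family and 50.9% of all genes), at a median of 0.21. The 4 X-linked genes (Rpl10, Rpl36a, Rpl39 and Rps4x) had a median of -0.01 and 0 calls by edgeR (0 at an unadjusted p below 0.05). Rpl10 had 377.0 and 403.5 CPM with the Hic1 vector and 409.0 and 364.0 CPM with the empty vector, and Rpl36a 93.8 and 101.5 CPM against 107.0 and 92.9 CPM, so both overlapped. Rps4x had 991.7 and 1092 CPM with the Hic1 vector and 1080 and 957.6 CPM with the empty vector, again with overlap. Rpl39, in the exit tunnel wall, had 225.1 and 259.2 CPM against 285.2 and 265.3 CPM (-0.18, adjusted p = 0.518). By subunit, the median log2 fold change was 0.17 over 50 large subunit genes, with 1 call, and 0.10 over 33 small subunit genes, with 0 calls by edgeR. Of the small subunit genes 9 were higher and 2 lower at an unadjusted p below 0.05 (27.3% and 6.06%, against 9.41% and 9.70% of all genes).

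Levels per length of the chosen transcript spanned a wide range. Averaged over the 4 libraries, Rpl32 stood at 1791, Rps14 at 1758 and Rplp0 at 1568 CPM per kb, all among the higher levels of the family. Rpl32 had 788.3 and 950.4 CPM with the Hic1 vector and 1080 and 885.4 CPM with the empty vector, with overlap between the groups. Rps14 had 1049 and 1249 CPM with the Hic1 vector and 974.3 and 924.9 CPM with the empty vector (log2 fold change 0.28, adjusted p = 0.257), without overlap. On the per-length scale Rps2 had a mean of 92.4 CPM per kb in the Hic1 vector group and 354.3 CPM per kb in the empty vector group. The level per kb rests on 1 annotated transcript per gene.

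The pattern was uneven between the replicate numbers. Within replicate number 1 the median difference of the ribosomal protein genes was -0.02 on the log2(CPM + 1) scale, and within number 2 it was 0.28, where all genes had 0.02 and 0.01. In both numbers 40 of the 83 genes were higher and 13 were lower with the Hic1 vector, and the remaining genes differed in direction between the numbers. Over all 11676 genes tested, 4059 were higher and 3854 lower in both numbers. Among 1844 other genes at 100 CPM or more the counts were 850 and 565. Across the 83 genes the Pearson correlation of the differences was 0.815, or 0.695 without Rps2, against 0.456 across all genes. The points share a library on each axis, and genes are not independent replicates. Rps2 lay near -1.9 in both numbers.

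**Figure D4:**
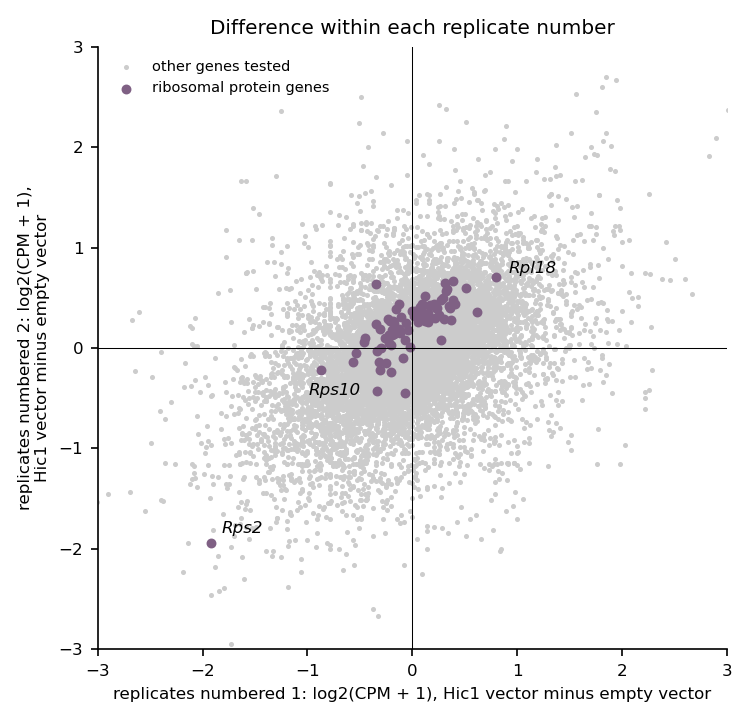
Difference on the log2(CPM + 1) scale, Hic1 vector minus empty vector, between the replicates numbered 1 (horizontal) and between those numbered 2 (vertical); purple points are ribosomal protein genes and grey points other genes tested. The purple points lie around -0.02 on the horizontal and 0.28 on the vertical axis, with Rps2 far from them at -1.92 and -1.95; genes beyond 3 on either axis are not drawn.

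Several ribosomal proteins have paralogs, and some of these can take their place in the ribosome. The counts of 4 paralogs were high enough to compare with the main gene. Whether each of these 4 takes that place was not tested. Rps27l, a p53 target in human cells, stood at 19.2% and 19.2% of the counts of Rps27 in the Hic1 vector libraries and at 26.3% and 28.6% in the empty vector libraries. The log2 ratio was lower by 0.516 with the Hic1 vector, a difference of -0.516 for Hic1 vector minus empty vector. Rpl36al stood at 98.7% and 109.9% of the counts of Rpl36a with the Hic1 vector and at 128.1% and 132.3% with the empty vector (-0.322). Rpl22l1 stood at 39.7% and 42.4% of Rpl22 with the Hic1 vector and at 32.0% and 33.3% with the empty vector (0.330). For these 3 pairs the groups did not overlap. Rpl7l1 stood at 9.99% and 9.10% of Rpl7 against 7.83% and 9.11% (0.175), and its groups overlapped. A two-sided exact permutation test gave p = 0.333 for each of the 3 pairs, the smallest that 2 against 2 libraries allow, and p = 0.667 for Rpl7l1, with adjusted values over the 4 pairs of 0.444 and 0.667. This exact test thus cannot reach 0.05 with these libraries.

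The counts behind the paralog ratios differ in how well reads can be told apart. The coding sequences are identical at 87.7% of aligned bases for Rpl36al and Rpl36a, 76.2% for Rps27l and Rps27, 70.2% for Rpl22l1 and Rpl22, and 56.9% for Rpl7l1 and Rpl7. The longest identical stretch is 26 bases, in Rpl22l1 and Rpl22. Of the counts of Rpl36a and its pseudogenes, 15.1% were assigned to the pseudogenes, and with pseudogene counts added the Rpl36al difference was -0.206. By gene, the log2 fold change was -0.22 for Rps27l and 0.29 for Rps27, and -0.35 for Rpl36al and -0.03 for Rpl36a. It was 0.02 for Rpl22l1 and -0.32 for Rpl22, and 0.18 for Rpl7l1 and 0.01 for Rpl7. None of the 8 genes was called, and Rpl22l1 and Rpl7 turned slightly negative with library sizes alone.

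**Figure D5:**
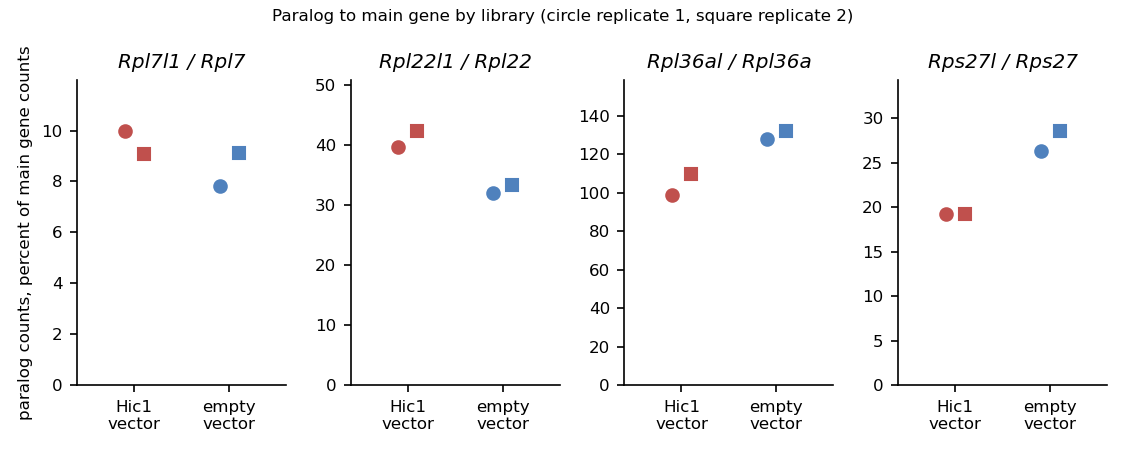
Counts of each paralog as a percent of the counts of its main gene in each library (circle replicate 1, square replicate 2), Hic1 vector left and empty vector right. Rps27l and Rpl36al are lower and Rpl22l1 is higher relative to the main gene in both Hic1 vector libraries, while Rpl7l1 overlaps; the exact permutation test cannot pass for any pair with 2 libraries per group.

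Counts of ribosomal protein pseudogenes made up a smaller share with the Hic1 vector. The table holds 319 rows with an Rpl, Rps or Rplp symbol marked -ps, 235 with a count and 79 tested. They took 1.56% and 1.51% of the gene and pseudogene counts together in the Hic1 vector libraries and 2.22% and 2.10% in the empty vector libraries, without overlap. The median log2 fold change was -0.38 over the 79 tested, against 0.15 over the genes. Both Hic1 vector libraries lay below both empty vector libraries for 42 of the 79 (53.2%, against 24.9% of all genes) and above them for 11 (13.9%, against 26.5%), and 1 was called (1.27%, against 1.82%), Rps2-ps7. These symbols mark mostly processed copies, whose counts may include reads of the parent gene. Depth also differed between the groups, and its part in this difference was not tested.

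The fold changes of the ribosomal protein genes were also set beside features of the genes. Genes with a small nucleolar RNA gene inside their span had a median of 0.05 (30 genes) and those without had 0.18 (53 genes). Across the 83 genes the Pearson correlation of the log2 fold change was 0.189 with transcript GC content, 0.005 with transcript length and 0.212 with level, and Spearman's rho was 0.395, 0.069 and 0.251. These values describe genes of the same 4 libraries, so no p is given.

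Rack1 and Fau, which the symbol rule leaves out, did not pass either. Rack1, a scaffold on the small subunit's head, had 1232 and 1135 CPM with the Hic1 vector and 755.4 and 975.1 CPM with the empty vector (log2 fold change 0.45, adjusted p = 0.110). Fau, whose small subunit protein is made as a fusion with a ubiquitin-like protein, had 390.1 and 478.1 CPM against 333.0 and 307.3 CPM (0.44, adjusted p = 0.128). The groups did not overlap for either gene, and the Hic1 vector libraries were the higher ones.

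Among other messenger RNAs with a TOP tract, 1 of 25 was called (4%, against 1.82% of all genes), and the median log2 fold change was 0.09. Eif3f, a subunit of the initiation factor that binds the small subunit, had 238.9 and 142.0 CPM in the Hic1 vector libraries and 738.6 and 606.6 CPM in the empty vector libraries. It fell by 1.82 on the log2 scale (SE 0.2395, adjusted p = 0.0201). Pabpc1, the poly(A)-binding protein, had 541.9 and 624.1 CPM with the Hic1 vector and 1064 and 742.8 CPM with the empty vector (-0.63, adjusted p = 0.0820), and Eef2, the translocation factor, 5290 and 5332 CPM against 4094 and 4362 CPM (0.33, adjusted p = 0.1197). Tmsb4x, the actin-binding thymosin, had 4075 and 4169 CPM with the Hic1 vector and 2654 and 3261 CPM with the empty vector (0.48, adjusted p = 0.0661). The groups did not overlap for any of these genes. Of 20 tested genes of mTORC1 and TOP control 0 were called by edgeR (2 higher and 1 lower at an unadjusted p below 0.05, or 10% and 5%). Over all genes 9.41% were higher and 9.70% lower at that threshold, and the counts in the lists below are to be read beside these shares. Larp1, which binds TOP tracts, had 34.5 and 34.1 CPM with the Hic1 vector and 12.1 and 19.5 CPM with the empty vector (1.10, adjusted p = 0.0667).

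In the Myc network 1 of 8 tested genes was called (12.5%, against 1.82% of all genes). Myc, the transcription factor that drives genes of ribosome production, had 51.8 and 42.2 CPM in the Hic1 vector libraries and 17.2 and 19.5 CPM in those with the empty vector, and rose by 1.34 on the log2 scale (SE 0.239, adjusted p = 0.0239). The call was lost after removal of the GC trend. Of the small subunit assembly factors 0 of 42 were called by edgeR (median -0.01, with 3 higher and 4 lower at an unadjusted p below 0.05), and of the large subunit factors 1 of 50 (2%, against 1.82% of all genes, median 0.11). Rrs1, which brings the 5S ribonucleoprotein into the large subunit precursor, had 10.3 and 7.75 CPM with the Hic1 vector and 34.2 and 28.5 CPM with the empty vector, and fell by 1.77 on the log2 scale (SE 0.294, adjusted p = 0.0197). Of 16 genes of the RNA polymerase I machinery 0 were called by edgeR (median 0.08, 1 higher at an unadjusted p below 0.05), and of 7 core proteins of small nucleolar ribonucleoproteins also 0 (median -0.12, 2 lower at an unadjusted p below 0.05).

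Of 7 dedicated chaperones of ribosomal proteins 0 were called by edgeR (2 higher at an unadjusted p below 0.05). Grwd1, which escorts Rpl3 in human and yeast cells, had 21.3 and 17.9 CPM with the Hic1 vector and 5.10 and 9.24 CPM with the empty vector (log2 fold change 1.41, adjusted p = 0.0661). Of 13 nascent chain factors 0 were called by edgeR (2 lower at an unadjusted p below 0.05), and Naa15, a subunit of the N-terminal acetyltransferase that sits at the tunnel exit, had 36.5 and 26.3 CPM against 111.9 and 59.0 CPM (-1.44, adjusted p = 0.0535). Both genes separated the groups without passing. Of 11 genes of ribosome rescue and quality control 1 was called (9.09%, against 1.82% of all genes). Gtpbp2, a partner of Pelo in the rescue of stalled ribosomes, had 88.6 and 76.3 CPM in the Hic1 vector libraries and 35.9 and 50.5 CPM in those with the empty vector, and rose by 0.93 on the log2 scale (SE 0.208, adjusted p = 0.0478). This call was lost with DESeq2 size factors, with limma voom, without the robust option, and after removal of the GC or the length trend. Without empty vector replicate 1, none of Eif3f, Rrs1, Myc and Gtpbp2 was called, and 8 of 12930 genes were called in all (0.0619%). In the pathway lists with 0 calls by edgeR, DESeq2 and limma voom also called 0 genes, except for 1 nascent chain factor called by DESeq2.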

How the data were processed

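Polyadenylated RNA of mouse P14 CD8+ T cells was sequenced in 2 Hic1 vector and 2 empty vector libraries. Per the labels' protocols, 5000 cells were sorted, 1000 were sorted again into lysis buffer, and 5 µl of lysate went into Smart-seq2, which ended in a PCR of 12 cycles. The deposited table holds raw counts per gene, whole numbers with no scaling. The build was mm10, and the tools listed were DESeq2 1.3.2, featureCounts 1.5.3, STAR 2.5.2b and Trimmomatic 0.38, per the submitters' processing notes, which state no order. Strandedness and the handling of multiply matching reads were not given in the sources used here. All 4 columns of the deposited normalized table were not used.

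All 55401 genes were filtered with filterByExpr (minimum count 10, minimum total 15), TMM-scaled and tested between the groups with edgeR 4.0.16 in R 4.3.3 (robust quasi-likelihood F test with group as the only term, prior count 2). P-values were adjusted by the Benjamini-Hochberg method over the 11676 genes tested, and genes were called below 0.05. CPM uses TMM-scaled library sizes, and the SE is the absolute log2 fold change divided by the root of F. Paralog ratios were tested with an exact permutation test over libraries. The edgeR fit, and not the permutation test, was checked on simulated counts. DESeq2 1.42.0, limma 3.58.1 (voom), other scalings and filters, GC and length correction (loess, span 0.3), a replicate block and omission of each library were alternatives.

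Identifiers were joined to GENCODE M21 (99.5% found, and all 90 ribosomal protein genes with the same version), from which 1 transcript per gene gave length, GC content and coordinates. Promoters are from RefSeq (GRCm38.p6). The genes, role groups and pathway lists were chosen with earlier results of these data known. Values by library are given for called genes, the 6 highest and 6 lowest fold changes, the 5 highest levels per length, paralog pairs, the P stalk, Rpl5, Rpl11, Rps6, and in each pathway list the called genes and up to 3 others of lowest p. A few genes that these rules take are not reported here. Rps3, Rps15, Rps23, Rpsa and Rpl4 were added with their values known. Reads were amplified by PCR and carry no molecular identifiers, so counts overstate precision.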

Additional observations from a re-analysis of the deposited data

How the results depend on the processing

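Genes called over the whole table numbered 213, and 321 with library sizes alone, 819 without the filter, 412 with DESeq2, 140 without the robust option, 138 after removal of the GC trend and 101 after removal of the length trend. The share of calls that were higher with the Hic1 vector was 39.4%, against 21.8% with library sizes alone, 56.3% without the filter and 27.5% after the GC trend was removed. Ribosomal protein genes called numbered 1 of 83 tested, 2 with library sizes alone and 2 with upper quartile scaling. They numbered 10 without the filter and 7 with DESeq2, where 88 entered the fit. They numbered 2 without the robust option, 0 after the GC trend and 2 after the length trend. Of all genes, 1.82% were called, and 2.75% with library sizes alone, 1.92% with upper quartile scaling and 2.56% without the filter. The percent was 4.15% with DESeq2, 1.2% without the robust option, 1.18% after the GC trend and 0.865% after the length trend. Leaving out each library gave 8 to 318 calls over all genes and 0 to 3 among the ribosomal protein genes. The median log2 fold change of the ribosomal protein genes was 0.155, and 0.0812 with library sizes alone, where the median of all genes shifted by -0.072. It was 0.0995 after the GC trend was removed, and leaving out each library gave 0.0431 to 0.2399. Its distance from the median of all genes was 0.1462, and 0.1446 with library sizes alone. That distance was 0.0786 after the GC trend and 0.024 to 0.2386 over single omissions. The difference in summed share, 0.213 percentage points, was 0.3785 without ribosomal RNA genes, 0.193 with pseudogene counts added, 0.402 with TMM-scaled library sizes, and -0.0395 to 0.4655 over single omissions. The TMM-scaled share and the subunit ratio without Rps2 were added after the data were seen. The causes were not tested.

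The replicate numbers were also fitted as a block, since same-numbered libraries share a number in the labels. The labels do not say that a number marks a shared animal or day, and with 2 numbers the deviations of replicate 1 correlated at 0.253 between the groups across genes. Xist (3590 and 3 counts in Hic1 vector replicates 1 and 2, 1885 and 0 with the empty vector) and Eif2s3y (0 and 951, against 0 and 396) split by number in the same way in both groups. With the block 794 genes were called (6.80% of all genes tested), among them 10 ribosomal protein genes. Of these Rpl18, Rps18, Rps19, Rplp0, Rps15, Rpl7a, Rpl6, Rpl13 and Rpl3 were higher and Rps2 was lower (adjusted p = 5.667e-05 by edgeR). With the block and GC correction together 526 genes were called (4.5%), 4 of them ribosomal protein genes (Rpl18 and Rpl15 higher, Rps2 and Rps10 lower).

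Genes near 0 changed sign without being called. With library sizes alone Rpl22l1 was -0.0576, Rpl7 -0.0658, Rpl10 -0.0603 and Rps4x -0.0412. With DESeq2 size factors Rpl7 was -0.0011. Without the filter Rpl36a was 0.0299, and at a minimum count of 30 Rpl22l1 was -0.0075, Rpl7 -0.0155 and Rpl10 -0.01. After the GC trend Rpl36a was 0.0726 and Rplp1 -0.0229, and 0.0742 and -0.0193 with the block as well. After the length trend Rpl7 was -0.0733, Rpl36a 0.1045 and Rps4x -0.0101. With pseudogene counts added Rpl10 was -0.0092. Over single omissions Rpl22l1 ran from -0.1975 to 0.2551, Rpl7 from -0.0495 to 0.0741, Rpl10 from -0.0802 to 0.1027, Rpl36a from -0.1444 to 0.0737, Rps4x from -0.0638 to 0.1241, Rplp2 from -0.239 to 0.0549 and Rps6 from -0.0061 to 0.321. Depth was lowest in the empty vector libraries (4017346 and 3941364 counts), and its part in leaving 7 genes out of the fit was not tested.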
